A study of Mus musculus with 10 samples.

Results

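Integrins and laminins are the receptors and the ligands of cell attachment to the basement membrane, and every gene symbol of both families in a deposited RNA-seq table of the mouse ovarian follicle was examined here. The members were taken by symbol alone, as the integrin alpha subunits (Itga with a number or with the suffix 2b, d, e, l, m, v or x), the integrin beta subunits (Itgb with 1 digit) and the laminin alpha, beta and gamma subunits (Lama, Lamb and Lamc with 1 digit). This gave 37 of the 23234 symbols in the table, 26 integrin and 11 laminin subunits, and 7 of the integrins belong to leukocytes and are described apart. The 6 symbols that begin alike but have other endings (Itgb1bp1, Itgb1bp2, Itgb1bp3, Itgb2l, Itgb3bp and Itgbl1) were not counted as members.

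The study sequenced RNA from 10 libraries of follicular somatic cells or whole complexes. The C57BL/6 strain gave 3 libraries of cumulus cells (the granulosa cells packed around the oocyte) at an age of 2 months and 3 at 10 months. The same strain gave 2 libraries of mural granulosa cells, the layers between the follicle cavity and its basement membrane, at 2 months. Cumulus-oocyte complexes (COC), which hold the oocyte as well as its cumulus cells, came from PMSG-primed mice aged 3 weeks, 1 library from strain BDF1 (the hybrid of C57BL/6 and DBA/2) and 1 from strain DBA/2. PMSG and eCG are names of 1 hormone, which drives follicles to grow. The labels name eCG-primed mice as the source of the mural cells, and whether the C57BL/6 cumulus donors were primed is unknown (not given in the sources used here). A shared culture medium held milrinone, a phosphodiesterase inhibitor that keeps oocytes arrested, and the labels do not say which libraries were cultured. No allele or treatment other than these is named for any group. The labels do not tie the libraries of a group to separate animals, and the p-values cover library-to-library spread alone, some or all of which can be technical. The complexes differ from the C57BL/6 groups in strain, age and the oocyte at once, and with 1 library per strain their values were compared without a test.

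Integrins are pairs of an alpha and a beta subunit that span the cell membrane, bind matrix proteins outside the cell and connect to actin through talin and kindlin inside it. Laminins are cross-shaped trimers of an alpha, a beta and a gamma chain. They polymerize into the sheet on which a basement membrane is built, together with type IV collagen, nidogen and perlecan. In the follicle the basement membrane lies under the outermost mural granulosa cells and keeps vessels, theca and leukocytes outside, while cumulus cells have no direct contact with it. Granulosa cells also make laminin that is deposited in small patches between cells.

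All values below are levels in FPKM (fragments scaled to transcript length and library size), which are per length and so can be set beside each other between genes. Read totals were not given in the sources used here. Hence the precision of low values is unknown. The summed FPKM of a library ranged from 470377 to 603460, and the mural libraries had the smallest sums. Differences were tested with limma on log2(FPKM + 1) across the 12412 genes with a mean of at least 1 FPKM over the 8 C57BL/6 libraries. A call needed an adjusted p (Benjamini-Hochberg over those genes) under 0.05. This scale understates the change of low genes.

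The labels were checked against marker genes, and several lists moved with the groups. Granulosa markers summed to 3957 FPKM or more in all 10 libraries. Of 8 endothelial markers, 7 and 8 reached 1 FPKM in the mural libraries and 1 or 2 in the young cumulus libraries, with summed levels of 24.9 and 65.7 FPKM against 1.60 to 5.33 FPKM. Theca and stroma markers (10 genes) summed to 104 and 161 FPKM in the mural libraries and to 7.46 to 9.38 FPKM in young cumulus. Immune markers summed to 21.9 and 52.9 FPKM in the mural libraries against 4.56 to 8.97 FPKM in young cumulus, and erythroid markers to 141 and 82.5 FPKM against 13.3 to 21.4 FPKM. Most of the erythroid sum of young cumulus was Alas2. That gene went the other way, at 13.3 to 16.1 FPKM in young cumulus and 2.36 and 1.17 FPKM in the mural libraries. All 8 surface epithelium markers reached 1 FPKM in both mural libraries and 2 or 3 did in young cumulus, with sums of 56.4 and 36.5 FPKM against 26.9 to 34.9 FPKM. Emcn, an endothelial sialomucin, was listed at 0 in all 3 young cumulus libraries, as were the surface epithelium markers Krt19 and Msln. Library 3 of the 10-month cumulus cells stood apart from the other 2, with 869 FPKM of mural granulosa markers, 22.0 FPKM of endothelial markers and 118 FPKM of surface epithelium markers. Its erythroid markers summed to 136 FPKM, against 23.2 and 21.9 FPKM in the other 2. Library 3 of the 2-month cumulus cells held 819 FPKM of oocyte markers, against 155 and 3.56 FPKM in its group and 2195 or more in the complexes. The part of these cells in the results below was not tested unless a value is given. In bulk RNA, fewer cells of a type and less RNA per cell cannot be told apart.

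The promoters of 3 members are shown first because these genes carry the main contrasts below. Itga5 and Lamb2 were higher in mural than in young cumulus cells, and Lamb1 is the laminin beta chain that led in the complexes. Each line holds the 250 bases before the RefSeq transcription start (build GRCm38.p6), read 5′ to 3′ on the gene's strand. The Itga5 window is chr15:103366792-103367041 on the minus strand, the Lamb2 window is chr9:108479612-108479861 on the plus strand and the Lamb1 window is chr12:31265043-31265292 on the plus strand. Capitals mark the GC box, the letters GGGCGG or their reverse complement CCGCCC.
Itga5: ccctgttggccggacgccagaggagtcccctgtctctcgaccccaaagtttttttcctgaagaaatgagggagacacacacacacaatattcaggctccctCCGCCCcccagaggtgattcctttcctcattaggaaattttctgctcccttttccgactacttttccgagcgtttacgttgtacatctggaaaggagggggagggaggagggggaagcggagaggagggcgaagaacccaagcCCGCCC
Lamb2: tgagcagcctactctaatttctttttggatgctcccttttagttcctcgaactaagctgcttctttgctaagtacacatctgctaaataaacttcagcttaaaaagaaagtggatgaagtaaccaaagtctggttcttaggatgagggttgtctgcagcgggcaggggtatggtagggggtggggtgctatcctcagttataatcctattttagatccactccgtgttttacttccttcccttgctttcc
Lamb1: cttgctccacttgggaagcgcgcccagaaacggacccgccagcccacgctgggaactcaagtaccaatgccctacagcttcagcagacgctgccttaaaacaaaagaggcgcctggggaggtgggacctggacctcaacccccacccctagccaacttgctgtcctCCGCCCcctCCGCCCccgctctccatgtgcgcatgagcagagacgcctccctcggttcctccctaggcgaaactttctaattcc

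The Itga5 and Lamb1 windows each hold 2 GC boxes, with a GC content of 55.6% and 62.0%, and the Lamb2 window holds 0 at a GC content of 43.6%. RefSeq promoter entries were matched for 23 of the 37 members, 26 promoters in all. A GC box was found in 9 of those 26, beside 32.7% of all 32851 mouse promoters of the same length. The AP-1 letters TGANTCA occurred in 1 of the 26 (Itgax), beside 6.75% of all. The cyclic AMP response element TGACGTCA occurred in 0 of the 26, beside 1.55% of all, and the NR5A letters CAAGGTCA in 0, beside 1.33%. Both strands were searched. These are matches of letters and say nothing of whether a factor binds.

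Of the 37 members, 17 had a mean of at least 1 FPKM over the C57BL/6 libraries and were tested: Itga1, Itga2, Itga3, Itga5, Itga6, Itga9, Itgav, Itgb1, Itgb3, Itgb5, Lama1, Lama4, Lama5, Lamb1, Lamb2, Lamc1 and Lamc3. The other 20 were too low. Among those 20, the highest single value was 3.36 FPKM (Lama2 in the BDF1 complexes), and 9 stayed under 1 FPKM in all 10 libraries. Most members were thus scarce, and a few subunits made up nearly all of each class.

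**Figure D1:**
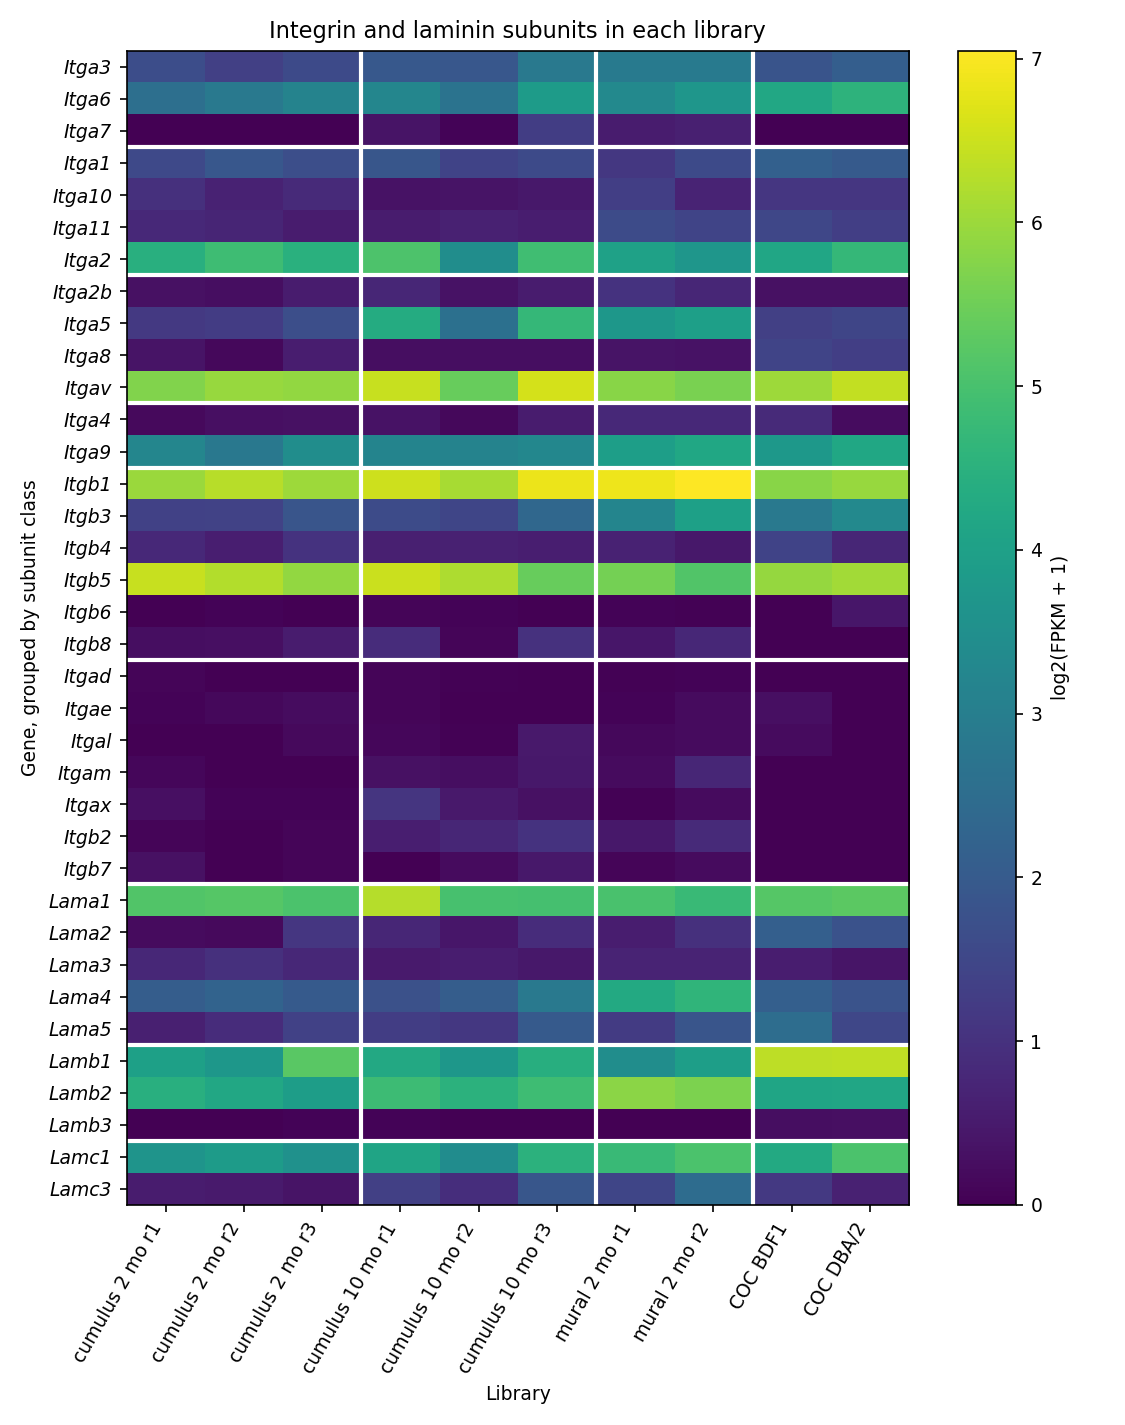
Levels of the integrin and laminin subunits (rows) in the 10 libraries (columns), as log2(FPKM + 1) on a colour scale. Itgb1, Itgb5, Itgav and Lama1 are strong in every column, and the leukocyte integrins are near 0 in every column.

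The receptor subunits that led in every group were Itgb1 (the common beta partner of the collagen, laminin and fibronectin receptors), Itgb5 (a beta subunit that pairs only with Itgav) and Itgav (the alpha subunit of the vitronectin receptors). In young cumulus cells Itgb5 averaged 73.5 ± 13.9 FPKM (SD, n = 3), Itgb1 67.7 ± 8.13 FPKM (SD, n = 3) and Itgav 57.2 ± 5.18 FPKM (SD, n = 3). The libraries of Itgb5 and Itgb1 overlapped in that group, so their order was not set apart from the spread. In mural cells the 3 subunits did not overlap, with Itgb1 at 115 and 131 FPKM, Itgav at 54.0 and 48.9 FPKM and Itgb5 at 46.9 and 34.2 FPKM. In both complexes the order was Itgav, Itgb5, Itgb1. At 10 months their libraries overlapped.

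Itga2, an alpha subunit of collagen receptors, was the next alpha subunit in young cumulus cells at 23.3 ± 4.0 FPKM (SD, n = 3). Itga9, a receptor subunit for tenascin and osteopontin, averaged 8.12 ± 1.92 FPKM (SD, n = 3) there, and its libraries overlapped those of Itga6, a laminin receptor subunit, at 6.34 ± 1.44 FPKM (SD, n = 3). Itga3, another laminin receptor subunit, and Itga5, the fibronectin receptor subunit, stayed at 2.26 FPKM or less in every young cumulus library.

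Among the laminins, Lama1 led in young cumulus cells at 34.1 ± 1.78 FPKM (SD, n = 3), with 34.3, 35.8 and 32.2 FPKM in the 3 libraries. Lamb1 and Lamb2, the beta chains, overlapped Lama1 or each other there. Lamc1, the gamma chain shared by most laminins, followed at 12 ± 1.39 FPKM (SD, n = 3) and Lama4, the alpha chain typical of vessel walls, at 3.31 ± 0.380 FPKM (SD, n = 3). In mural cells the order was another: Lamb2 at 55.4 and 49.9 FPKM stood above all other laminin genes, Lamc1 and Lama1 overlapped, and Lamb1 was lower than both Lama4 libraries at 10.1 and 14.6 FPKM.

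The make-up of each class was computed per library as shares of its summed FPKM, with the shares picked after the values were seen. Lama1 made up 83.4% to 88.1% of the laminin alpha sum in young cumulus cells and 60.4% and 48.6% in mural cells. Lama4 made up 7.69% to 8.98% in young cumulus cells and 34.9% and 43.6% in mural cells. In the complexes Lama4 made up 7.18% and 5.64%, below the range of young cumulus cells. At 10 months it made up 2.87%, 8.94% and 15.3%, the highest in library 3, the library with the raised mural and endothelial markers.

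The laminin beta chains divided the sample types another way. Lamb2 made up 84.6% and 77.4% of the laminin beta sum in mural cells, and Lamb1 82.6% and 82.5% in the complexes. The ratio of Lamb2 to Lamb1 was 5.51 and 3.42 in mural cells and 0.208 and 0.209 in the complexes. It was 1.52, 1.79 and 1.38 in the 10-month cumulus libraries and 1.39, 1.45 and 0.381 in the young ones. The low value came from library 3, whose oocyte markers were high, while the other 2 young libraries sat among the 10-month libraries.

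**Figure D2:**
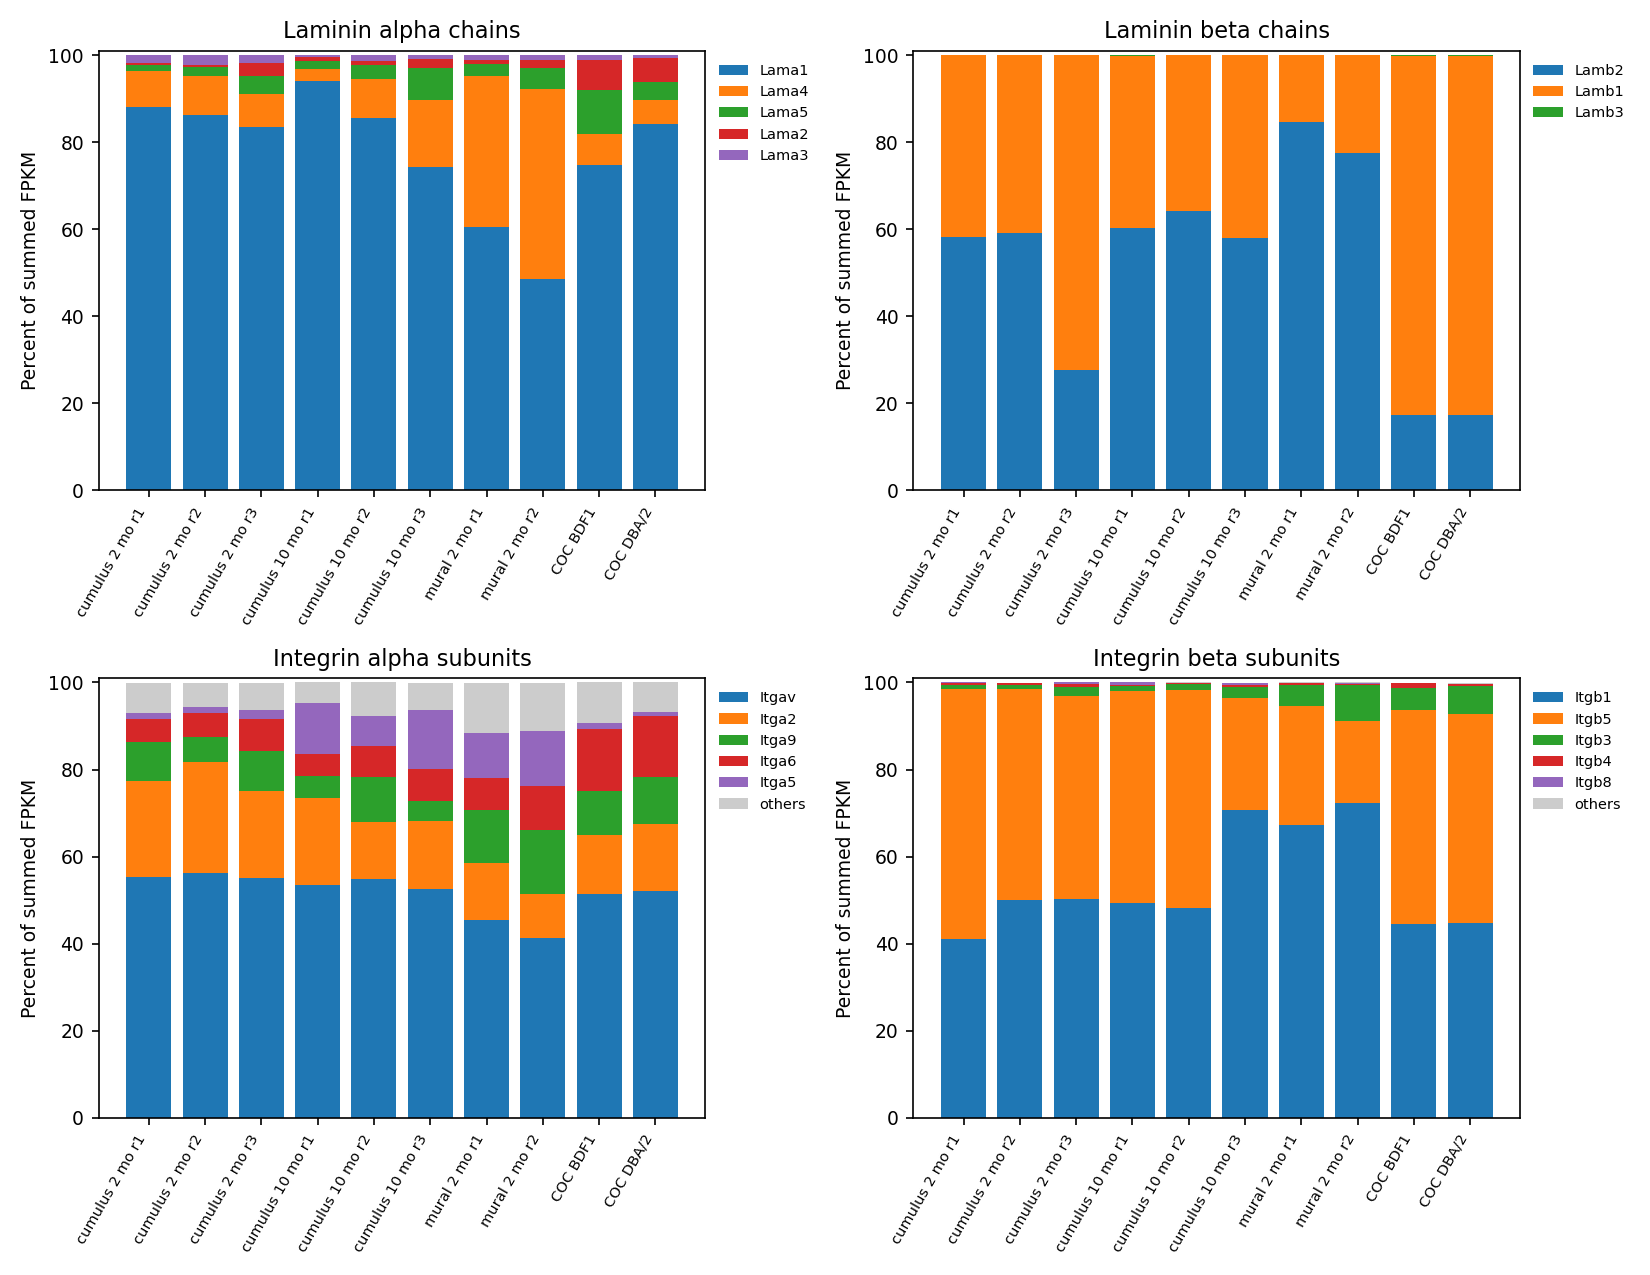
Share of each subunit in the summed FPKM of the laminin alpha, laminin beta, integrin alpha and integrin beta classes (leukocyte integrins left out), in percent, with 1 stacked bar per library. Mural bars hold more Lama4 and Lamb2, complex bars hold mostly Lamb1, and the Itga5 band is thin in young cumulus cells and complexes.

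The integrin beta subunits were read in the same way. The summed integrin beta level was 127 to 154 FPKM in young cumulus cells, 171 and 182 FPKM in mural cells and 144 to 182 FPKM at 10 months. Within that sum Itgb1 made up 41.0%, 50.0% and 50.3% in young cumulus cells and 67.3% and 72.3% in mural cells. Itgb5 made up 46.5% to 57.4% in young cumulus cells and 27.3% and 18.8% in mural cells. In the complexes both subunits were within the range of young cumulus cells, with Itgb1 at 44.5% and 44.8%. The 10-month libraries gave Itgb1 shares of 49.4%, 48.2% and 70.8%, and again library 3 was the one near the mural value.

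The first comparison set mural granulosa cells against cumulus cells at 2 months, the contrast of cells on the follicle wall with cells around the oocyte. Of the 17 tested members, 9 were higher in mural cells (Itga3, Itga5, Itga9, Itgb1, Itgb3, Lama4, Lamb2, Lamc1 and Lamc3) and 0 were lower. Lamc3 averaged 0.396 FPKM in young cumulus cells and passed the filter only through the mural (3.22 FPKM) and 10-month (1.70 FPKM) libraries. All genes of the background passed the same filter. The background was 20.9% of all tested genes called in either direction, 9.69% higher and 11.2% lower. The median log2 difference of the 17 members was 0.86, beside -0.08 over all tested genes. At an unadjusted p under 0.05, 10 members passed, the same 9 and Itgb5, which was lower. By non-overlap of libraries alone, mural cells lay above young cumulus cells for 10 of the 17 tested members (a background of 25.6%) and below for 3 (a background of 32.0%).

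The count of 9 rested on few libraries. It was 0 without mural library 2 (99 genes called in all), 4 without mural library 1, 3 without 2-month cumulus library 2 and 5 without 2-month cumulus library 1. Rescaling every library to the same FPKM sum moved the median of all genes from -0.08 to 0.14 and the share of higher calls among all calls from 46.3% to 69.5%, and under it, as under median centring, 9 members were again higher and 0 lower.

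**Figure D3:**
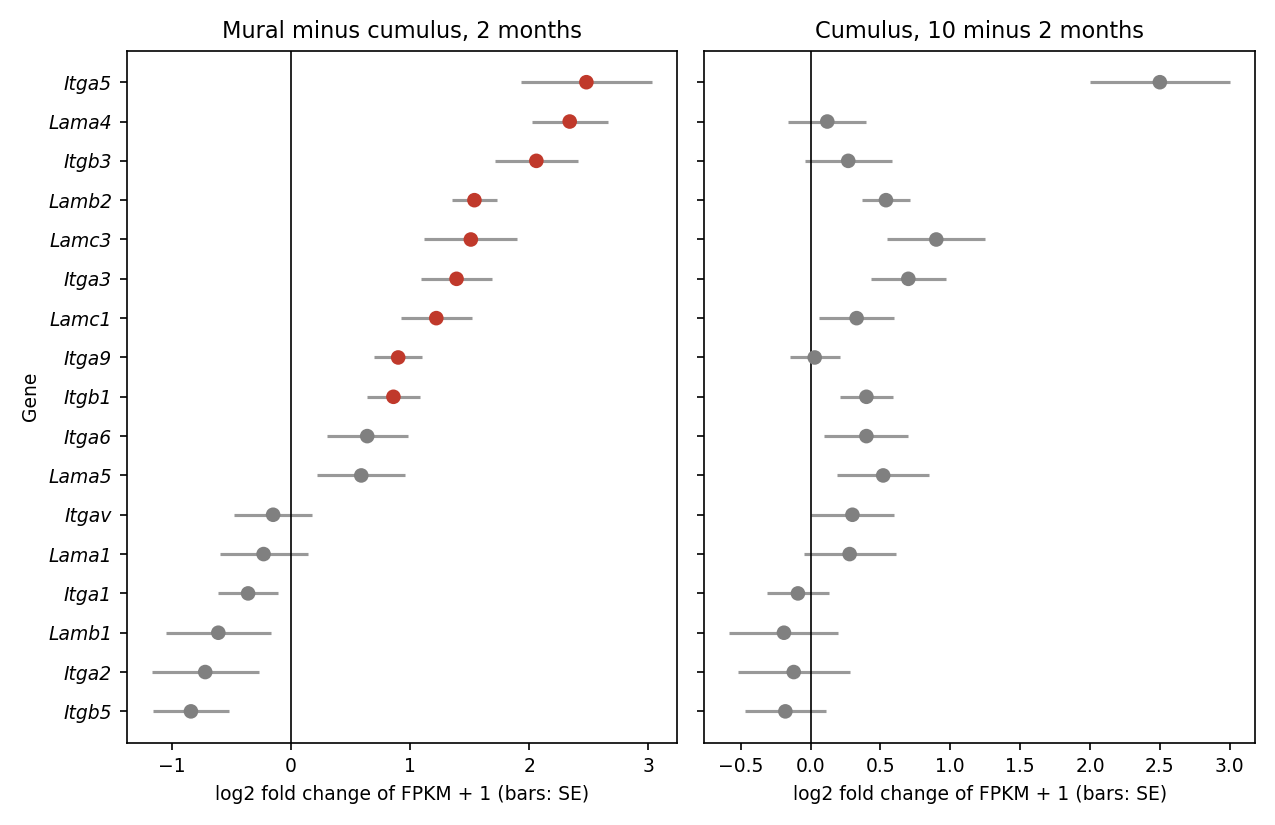
Difference in log2(FPKM + 1) for the 17 tested members, mural minus cumulus cells at 2 months (left) and cumulus cells at 10 months minus 2 months (right), with bars of 1 SE from limma and red points for an adjusted p under 0.05. The left panel has 9 red points, all above 0, and the right panel has 0.

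The vessel-wall alpha chain Lama4 stood furthest apart among the laminins. It was at 3.24, 3.72 and 2.97 FPKM in young cumulus cells and at 18.3 and 23.6 FPKM in mural cells. The mural libraries were thus far above all other libraries, of which the highest, 10-month library 3, was at 6.28 FPKM. The difference was 2.34 ± 0.32 (log2, SE), with an adjusted p of 0.00577 by limma. Endothelial and stromal markers were higher in the same mural libraries, by the sums given above, and the mural library with the higher Lama4 also had the higher sum of both lists. Of the other called members, Itga5, Itga9, Itgb1, Itgb3, Lamc1 and Lamc3 were higher in that library too. Lamb2 was lower, and Itga3 was level at 6.56 and 6.54 FPKM. The share of all genes with that order was not computed, and the part of these cells was not tested.

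Lamb2, the beta chain of laminins at mature basement membranes and synapses, was at 20.9, 17.8 and 14.1 FPKM in young cumulus cells and at 55.4 and 49.9 FPKM in mural cells. Of the 2 mural libraries it was lower in the one with more endothelial and stromal marker RNA, and the part of those cells was not tested. The groups did not overlap, and the difference was 1.54 ± 0.19 (log2, SE; adjusted p = 0.00469 by limma), the smallest adjusted p among the members. Lama4 and Lamb2 each passed under 15 of the 16 alternative settings, all but the one without mural library 2.

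Lamc1 was at 11.6, 13.5 and 10.8 FPKM in young cumulus cells and at 26.2 and 32.4 FPKM in mural cells, a difference of 1.22 ± 0.30 (log2, SE; adjusted p = 0.0273 by limma). Lamc3, a less common gamma chain, was at 0.306 to 0.448 FPKM in young cumulus cells and at 1.78 and 4.65 FPKM in mural cells. Taken as a ratio, its 2 mural libraries lay further apart than those of the other called laminin chains. Its difference was 1.51 ± 0.39 (log2, SE; adjusted p = 0.0308 by limma), and reads of an antisense gene that overlaps 6.27% of its exonic bases (Gm13441, GENCODE M21) could not be told from its own, since no source used here says whether strand was used. Lamc1 kept its call in 11 of 16 alternative settings and Lamc3 in 11 of 15.

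The other tested laminin chains did not pass. Lama1 was at 31.6 and 26.4 FPKM in mural cells, just below all 3 young cumulus libraries, with a difference of -0.23 ± 0.37 (log2, SE; adjusted p = 0.686 by limma). Lamb1 was at 15.0, 12.3 and 37.0 FPKM in young cumulus cells and at 10.1 and 14.6 FPKM in mural cells, with overlapping libraries. Lama5, an alpha chain common in epithelial basement membranes, was at 0.547, 0.852 and 1.55 FPKM in young cumulus cells and at 1.35 and 2.62 FPKM in mural cells, also overlapping.

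**Figure D4:**
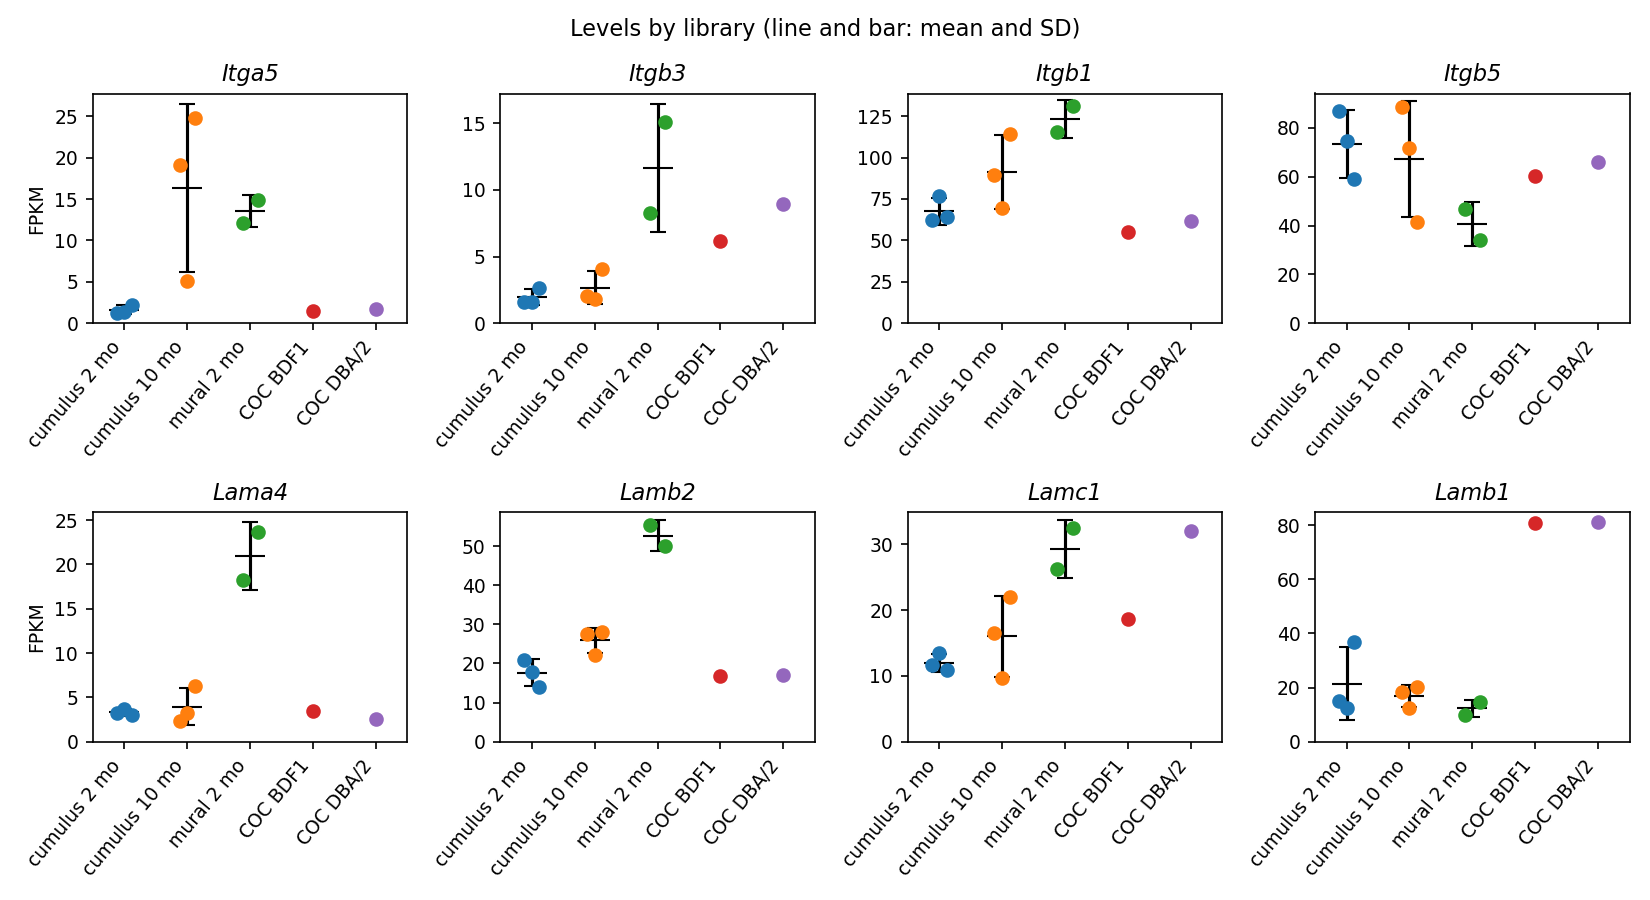
FPKM of 8 members (Itga5, Itgb3, Itgb1, Itgb5, Lama4, Lamb2, Lamc1 and Lamb1) with 1 point per library, and the mean with its SD for the C57BL/6 groups (complexes are single points). The mural points of Lama4 and Lamb2 lie above all other points, the Lamb1 points of the complexes lie above all others, and Itga5 spreads widely at 10 months.

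Among the receptors, Itgb3, the beta subunit that forms the classical vitronectin receptor with Itgav, was at 1.59, 1.61 and 2.65 FPKM in young cumulus cells. It was at 8.27 and 15.1 FPKM in mural cells, above every cumulus library of either age. The difference was 2.06 ± 0.35 (log2, SE; adjusted p = 0.0088 by limma). It passed under 14 of 15 settings. As with Lama4, the higher mural library was the one with the higher endothelial sum, an order between 2 libraries that was not tested.

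Itga5 was at 1.23, 1.39 and 2.26 FPKM in young cumulus cells and at 12.2 and 14.9 FPKM in mural cells, with no overlap. The difference was 2.48 ± 0.55 (log2, SE; adjusted p = 0.0201 by limma), the largest of the 17 members in this contrast. Its beta partner Itgb1 was at 62.1, 77.0 and 64.0 FPKM in young cumulus cells and at 115 and 131 FPKM in mural cells. That is a smaller difference from a much higher level, at 0.86 ± 0.22 (log2, SE; adjusted p = 0.0295 by limma). Itga5 kept its call in 12 of 16 alternative settings and Itgb1 in 11 of 16.

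The 2 laminin receptor subunits that were tested both lay higher in mural cells, but 1 of them passed. Itga3 was at 2.16, 1.51 and 1.99 FPKM in young cumulus cells and at 6.56 and 6.54 FPKM in mural cells, a difference of 1.39 ± 0.30 (log2, SE; adjusted p = 0.0181 by limma). Itga6 was at 4.98, 6.21 and 7.84 FPKM in young cumulus cells and at 8.92 and 11.9 FPKM in mural cells, at 0.64 ± 0.34 (log2, SE; adjusted p = 0.215 by limma). Itga9 was at 8.36, 6.09 and 9.91 FPKM in young cumulus cells and at 14.4 and 17.2 FPKM in mural cells, a difference of 0.90 ± 0.20 (log2, SE; adjusted p = 0.0195 by limma). Its 2 mural libraries lay close to the DBA/2 complexes at 17.3 FPKM. Itga3 kept its call in 12 of 15 alternative settings and Itga9 in 13 of 16.

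Of the tested integrins, the collagen receptor subunits Itga1 and Itga2, the beta subunit Itgb5 and Itgav had lower means in mural cells without a call. Itga2 was at 20.6, 27.9 and 21.3 FPKM in young cumulus cells and at 15.4 and 12 FPKM in mural cells, at -0.72 ± 0.45 (log2, SE; adjusted p = 0.286 by limma). Itgb5 was at 86.9, 74.6 and 59.1 FPKM in young cumulus cells and at 46.9 and 34.2 FPKM in mural cells, at -0.84 ± 0.32 (log2, SE; adjusted p = 0.102 by limma). The libraries of both did not overlap between the groups. Itgb5 passed under 4 alternatives and Itga2 under 2, among them for both the fit of only the 2 groups (adjusted p = 0.0481 for Itgb5 and 0.0486 for Itga2 by limma). Itga1, a second collagen receptor subunit, was at 1.95 to 2.76 FPKM in young cumulus cells and at 1.19 and 1.99 FPKM in mural cells. Itga1 and Itga2 are neighbours on the chromosome, and 3.68% of the exonic bases of Itga1 overlap Gm49395 on the same strand.

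Between mural and young cumulus cells, Itgav was the most even of the abundant receptors. An opposite-strand gene (Gm13684) overlaps 5.90% of its exonic bases. Itgav was at 51.4, 61.5 and 58.6 FPKM in young cumulus cells and at 54.0 and 48.9 FPKM in mural cells, at -0.15 ± 0.33 (log2, SE; adjusted p = 0.783 by limma). The balance of its beta partners differed more than its own level: the ratio of Itgb3 to Itgb5 was 0.0183, 0.0216 and 0.0449 in young cumulus cells and 0.176 and 0.440 in mural cells. These ratios were chosen after the values were seen.

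The second comparison set cumulus cells of mice aged 10 months against those aged 2 months. No member was called (0 of 17), where the background was 0% of all tested genes. Across all genes 1727 had an unadjusted p under 0.05 by limma, and the smallest adjusted p was 0.0869. Among the members 4 had an unadjusted p under 0.05 (Itga3, Itga5, Lamb2 and Lamc3). The same 4 of the 17 tested members had every 10-month library above every 2-month library, beside a background of 8.93% of genes, and 0 of the 17 lay wholly below, beside 8.88%. Lamc3, 1 of the 4, passed the filter only through the mural and 10-month libraries. Of the members too low to test, Itga10 (0.281 to 0.381 FPKM at 10 months and 0.599 to 0.978 FPKM at 2 months) and Lama3 (0.382 to 0.484 and 0.720 to 0.981 FPKM) lay wholly below. Itga7 and the leukocyte integrins Itgam, Itgax and Itgb2, also too low to test, lay wholly above. The background shares do not cover genes this low. The median log2 difference of the 17 members was 0.30, beside -0.02 over all genes. It was 0.10 without 10-month library 3, the library with the raised mural and endothelial markers, and 0.58 without 10-month library 2. With library 3 of both cumulus groups left out it was 0.17.

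Itga5 had the largest difference with age. It was at 1.23, 1.39 and 2.26 FPKM at 2 months and at 19.1, 5.07 and 24.8 FPKM at 10 months. The groups did not overlap, but the 10-month libraries ranged widely, with library 2 well below the others. The difference was 2.5 ± 0.50 (log2, SE; adjusted p = 0.196 by limma). Without 10-month library 2 it was 3.14 with an adjusted p of 0.00461 by limma, 1 of 245 genes then called.

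Itga5 and the mural markers ordered the 10-month libraries differently. The mural granulosa list summed to 47.5, 302 and 869 FPKM in 10-month libraries 1, 2 and 3, and library 1, at the young cumulus level of that list, had 19.1 FPKM of Itga5. Its endothelial list summed to 4.45 FPKM, within the range of young cumulus cells, and its stromal list to 23.1 FPKM, above it. Immune markers summed to 25.2, 60.5 and 65.8 FPKM at 10 months and to 4.56, 8.89 and 8.97 FPKM at 2 months. Surface epithelium markers summed to 58.4, 58.4 and 118 FPKM at 10 months and to 26.9 to 34.9 FPKM at 2 months. In 10-month library 1 most of that sum was Krt8 at 50.1 FPKM, and Krt19, Upk1b, Upk3b and Msln were at 0. Krt8 also made up most of the 2-month sums, at 22.4 to 30.8 FPKM. Of the 8 markers, 2, 7 and 8 reached 1 FPKM in 10-month libraries 1, 2 and 3, against 2 or 3 at 2 months. The part of these cells in the Itga5 values was not tested. As a share of the summed integrin alpha level, Itga5 was 1.28% to 2.12% at 2 months and 11.7%, 6.72% and 13.5% at 10 months, with 10.2% and 12.6% in mural cells.

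Lamb2 was at 20.9, 17.8 and 14.1 FPKM at 2 months and at 27.6, 22.1 and 27.9 FPKM at 10 months, at 0.54 ± 0.17 (log2, SE; adjusted p = 0.260 by limma). All 3 older libraries lay between the young cumulus and the mural libraries. Itga3 was at 2.83, 2.74 and 6.18 FPKM at 10 months and Lamc3 at 1.54, 0.889 and 2.67 FPKM. In both, library 3 was the highest, and neither passed, at 0.70 ± 0.27 for Itga3 and 0.90 ± 0.35 for Lamc3 (log2, SE; adjusted p = 0.314 for each by limma).

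The other 5 members called in mural cells (Itga9, Itgb1, Itgb3, Lama4 and Lamc1) had libraries that overlapped between the ages. Lama4 was at 2.33, 3.24 and 6.28 FPKM in the older cumulus cells, at 0.12 ± 0.28 (log2, SE; adjusted p = 0.899 by limma), and without library 3 of both cumulus groups the sign turned to -0.25. Itgb3 was at 2.08, 1.79 and 4.07 FPKM, at 0.27 ± 0.31 (log2, SE; adjusted p = 0.751 by limma). Itga9 was at 8.10, 7.85 and 8.57 FPKM, the tightest set of the 10-month values among the tested members above 5 FPKM. Both contrasts share the young cumulus libraries, so they are not independent of each other. Set against the 10-month libraries in place of the young ones, the mural libraries lay above for 7 of the 17 tested members (Itga3, Itga9, Itgb1, Itgb3, Lama4, Lamb2 and Lamc1; a background of 23.0%) and below for 0 (a background of 28.1%).

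Other members varied between the 10-month libraries. Lama1 was at 76.2, 30.9 and 30.5 FPKM, so that library 1 alone was above the young range of 32.2 to 35.8 FPKM. Itgav was at 87.6, 41.3 and 96.4 FPKM and Itga2 at 32.6, 9.87 and 28.4 FPKM, both lowest in library 2. Itgb1 was at 89.8, 69.3 and 114 FPKM and Lamc1 at 16.5, 9.68 and 22.0 FPKM, also lowest in library 2. Itgb5 went the other way, at 88.4, 72.0 and 41.5 FPKM, lowest in library 3.

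In the cumulus-oocyte complexes a member was counted as higher where both libraries were at least 2-fold above the highest young cumulus library. This held for 3 of the 17 tested members (Itga6, Itgb3 and Lamb1), which were kept for their level in the C57BL/6 libraries and not in the complexes, beside a background of 6.17% of the 12412 genes. It held for 0 in the other direction, beside 3.54%. Because strain, age and the oocyte differ together, these cannot be told apart.

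Lamb1 was at 80.8 and 81.2 FPKM in the complexes, above all 8 other libraries. The next was 2-month cumulus library 3 at 37.0 FPKM, the cumulus library with the most oocyte RNA. Its Gdf9, an oocyte growth factor, was at 261 FPKM, beside 951 and 894 FPKM in the complexes and 54.4 and 0.647 FPKM in the other 2 young cumulus libraries, whose Lamb1 was at 15.0 and 12.3 FPKM. At 10 months Gdf9 was at 78.1, 41.7 and 84.5 FPKM and Lamb1 at 18.2, 12.4 and 20.3 FPKM, both lowest in library 2. The mural libraries went the other way, with Gdf9 at 30.6 and 3.07 FPKM and Lamb1 at 10.1 and 14.6 FPKM. Whether the oocyte is the source of Lamb1 was not tested.

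Itga6, the alpha subunit of laminin receptors, was at 17.8 and 22.4 FPKM in the complexes. That is above every C57BL/6 library, the highest of which was 10-month library 3 at 13.5 FPKM. In 2-month library 3 it was at 7.84 FPKM, beside 4.98 and 6.21 FPKM in the other young libraries. Itgb3 was at 6.19 and 8.97 FPKM in the complexes, above all cumulus libraries and near the lower mural value. Lama2, an alpha chain best known from muscle and too low in the C57BL/6 libraries to be counted, was at 3.36 and 2.40 FPKM in the complexes and at 1.16 FPKM or less elsewhere.

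The laminin and receptor genes that were high in mural cells were not all high in the complexes. Lamb2 was at 16.8 and 17.0 FPKM there, within the young cumulus range. Lama4 was at 3.42 and 2.51 FPKM, the first within that range and the second below it. Itga5 was at 1.53 and 1.76 FPKM, again within the young cumulus range and below every 10-month and mural value. Lamc1 was higher in the DBA/2 complexes (31.9 FPKM) than in the BDF1 complexes (18.6 FPKM), and with 1 library each this has no replicate check.

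The low members outside leukocytes mostly stayed near 0. Itga7, a laminin receptor subunit of muscle, was listed at 0 in all 3 young cumulus libraries and both complexes, at 0.439 and 0.545 FPKM in mural cells and at 0.297, 0.0476 and 1.45 FPKM at 10 months. Itga11, a collagen receptor subunit of fibroblasts, was at 2.07 and 1.73 FPKM in mural cells, at 1.80 and 1.45 FPKM in the complexes and at 0.770 FPKM or less in all cumulus libraries. Itga8, an RGD-binding subunit, was at 1.72 and 1.46 FPKM in the complexes and at 0.485 FPKM or less elsewhere. Without a filter on low values Itga11 and Itga4, a subunit of fibronectin and vascular cell adhesion receptors, were also higher in mural cells by limma (adjusted p = 0.013 and 0.0268).

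Among the low laminin chains, Lama3 and Lamb3, chains of epithelial laminin, were scarce. Lama3 was at 0.321 to 0.981 FPKM and Lamb3 at 0.211 FPKM or less in all libraries. Itgb4, the beta partner of Itga6 in hemidesmosomes, was at 1.65 FPKM in the BDF1 complexes and at 1.04 FPKM or less elsewhere. Itgb6 and Itgb8, partners of Itgav, stayed at 1.02 FPKM or less, and Itga10 and Itga2b, subunits of a cartilage collagen receptor and of the platelet fibrinogen receptor, at 1.45 and 1.04 FPKM or less. For Itga10, 33.5% of the exonic bases overlap Gm42957.

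The 7 leukocyte integrins (Itgad, Itgae, Itgal, Itgam, Itgax, Itgb2 and Itgb7) were read apart because these subunits are made mainly by blood cells. Their summed level was 0.768, 0.169 and 0.469 FPKM in young cumulus cells, 2.1, 1.5 and 2.43 FPKM at 10 months, 0.788 and 2.12 FPKM in mural cells, and 0.379 and 0 FPKM in the complexes. The 10-month libraries all lay above the young ones. Itgb2 is the common beta partner of Itgad, Itgal, Itgam and Itgax. It was at 0.0742, 0 and 0.0599 FPKM at 2 months and at 0.512, 0.684 and 1.04 FPKM at 10 months. Its mural libraries were at 0.378 and 0.782 FPKM. Itgax, the alpha subunit used as a dendritic cell marker, reached 1.13 FPKM in 10-month library 1, and Itgam, its counterpart in macrophages and neutrophils, 0.679 FPKM in mural library 2. Itgal, the lymphocyte alpha subunit, stayed at 0.404 FPKM or less, and Itgad, Itgae and Itgb7 at 0.373 FPKM or less.

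None of the 7 was tested in the filtered set. With no filter, Itgb2 differed with age by 0.73 (log2; adjusted p = 0.231 by limma) and between mural and young cumulus cells by 0.59 (adjusted p = 0.0513 by limma). The immune marker sums given above were likewise higher in all 10-month libraries than in all 2-month libraries, and 7, 9 and 9 of the 12 immune markers reached 1 FPKM at 10 months against 2 to 4 at 2 months. Cd3e, a T cell marker, was listed at 0 in all libraries but 10-month library 3, and Ptprc, the pan-leukocyte marker, did not exceed 0.548 FPKM. Itgam, Itgax and Itgad lie side by side in the genome, and 68.7% of the exonic bases of Itgam overlap another annotated gene (Gm49368).

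The matrix partners of the integrins and laminins were read as a list of 18 genes, all in the table and 14 tested. In mural against young cumulus cells 9 were higher (Hspg2, Agrn, Col4a1, Col4a2, Col4a5, Col4a6, Dag1, Bcam and Fn1) and 1 lower (Thbs1), beside 9.69% and 11.2% of all tested genes. Bcam, Col4a2, Col4a6 and Spp1 averaged under 1 FPKM in young cumulus cells. They passed the filter only through the mural and 10-month libraries. The median log2 difference was 1.31, beside -0.08 over all genes. Col4a1 and Col4a2, the chains of the common type IV collagen, had the largest differences of the 4 with the smallest p. Col4a1 was at 1.07 ± 0.463 FPKM (SD, n = 3) in young cumulus cells and 38.8 ± 24.4 FPKM (SD, n = 2) in mural cells, a difference of 4.14 ± 0.67 (log2, SE; adjusted p = 0.008 by limma). Col4a2 went from 0.986 ± 0.195 to 24.2 ± 15.3 FPKM (SD, n = 3 and 2), at 3.52 ± 0.60 (log2, SE; adjusted p = 0.00897 by limma). The mural libraries differed widely in both.

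The other 2 of these 4 were Col4a5 and Bcam. Col4a5, a collagen chain of the follicular basement membrane, averaged 4.77 ± 1.17 FPKM in young cumulus and 17.1 ± 2.20 FPKM in mural cells (SD, n = 3 and 2), at 1.66 ± 0.30 (log2, SE; adjusted p = 0.011 by limma). Bcam, a receptor for the laminin chain Lama5, averaged 0.448 ± 0.173 and 13.2 ± 1.18 FPKM (SD, n = 3 and 2), at 3.29 ± 0.64 (log2, SE; adjusted p = 0.0134 by limma). Type IV collagen and Bcam are also made by vessel cells, whose markers were higher in the mural libraries, and their part was not tested.

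With age 0 of the 14 matrix partners passed, with a median log2 difference of 0.51. Fn1, the fibronectin that Itga5 binds, averaged 3.03 ± 0.778 FPKM at 2 months and 9.73 ± 4.34 FPKM at 10 months (SD, n = 3 each), at 1.33 ± 0.37 (log2, SE; adjusted p = 0.239 by limma). Col4a1 averaged 9.37 ± 9.15 FPKM and Col4a2 6.82 ± 6.12 FPKM at 10 months (SD, n = 3 each), with adjusted p-values of 0.249 and 0.258 by limma. Spp1, or osteopontin, was at 2.05, 1.79 and 34.1 FPKM at 10 months, with the mean set by library 3, against 0.0976 ± 0.0860 FPKM at 2 months (SD, n = 3), and did not pass (adjusted p = 0.293 by limma).

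The intracellular partners, the adhesion complex that joins integrins to actin, had calls in both directions. Of 28 listed genes 27 were in the table under the listed symbol and 24 were tested. In mural cells 4 were higher (Parva, Tns3, Rsu1 and Kank2) and 4 lower (Fermt2, Zyx, Tns1 and Tgfb1i1), beside 9.69% and 11.2% of all tested genes. The median log2 difference was 0.11, beside -0.08 over all genes. Zyx, the actin-linked protein zyxin, averaged 66.5 ± 3.85 FPKM in young cumulus and 32.4 ± 5.89 FPKM in mural cells (SD, n = 3 and 2), and fell by 1.02 ± 0.15 on the log2 scale (SE; adjusted p = 0.00634 by limma).

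The other named genes of that list were higher in mural cells. Tns3, a tensin that binds integrin tails, averaged 2.12 ± 0.317 and 14 ± 6.99 FPKM (SD, n = 3 and 2), at 2.19 ± 0.42 (log2, SE; adjusted p = 0.0129 by limma). Kank2, which binds talin, averaged 12.3 ± 1.58 and 22.0 ± 1.63 FPKM (SD, n = 3 and 2; adjusted p = 0.0127 by limma), and Rsu1, of the complex around integrin-linked kinase, 15.7 ± 0.631 and 27.8 ± 1.64 FPKM (SD, n = 3 and 2; adjusted p = 0.0202 by limma).

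With age 0 of the 24 adhesion complex genes passed, with a median log2 difference of 0.17. The 4 with the smallest p were Zyx, Vasp, Vcl and Tns3. Zyx averaged 93.2 ± 6.15 FPKM at 10 months (SD, n = 3), at 0.48 ± 0.13 above 2 months (log2, SE; adjusted p = 0.238 by limma), so that its mean was highest in older cumulus and lowest in mural cells. Vcl, or vinculin, averaged 14 ± 6.35 FPKM at 2 months and 43.8 ± 23.2 FPKM at 10 months (SD, n = 3 each), at 1.49 ± 0.47 (log2, SE; adjusted p = 0.263 by limma). Vasp, an actin polymerase, averaged 14.1 ± 2.76 and 24.0 ± 6.17 FPKM (SD, n = 3 each; adjusted p = 0.256 by limma), and Tns3 had an adjusted p of 0.274 by limma.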

How the data were processed

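RNA was sequenced from 10 libraries in 5 groups, taken from the labels. The authors deposited 1 table of FPKM per gene symbol and library, and per the submitters' processing notes TopHat2 2.1.0, Cufflinks 2.1.0 and build mm9 were used. Annotation, strand use and read totals: not given in the sources used here. Low values could not be given a counting error, and genes that overlap share reads.

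The members and lists were chosen with earlier results of these data known. Every member is counted, and 1 low member is not reported here. Of each partner list the up to 4 genes with the smallest p in a contrast are described. The fit was limma 3.58.1 in R 4.3.3 on log2(FPKM + 1) with an intensity trend, 1 term per group over the 8 C57BL/6 libraries (5 residual degrees of freedom), and two-sided p-values adjusted by Benjamini-Hochberg over 12412 genes (mean level 1 FPKM or more). It was tested on simulated data. The complexes, 1 library per strain, entered no test. Promoters came from RefSeq (GRCm38.p6), and gene overlaps from GENCODE M21, another build than mm9. The 16 alternatives changed the pseudocount (0.1), the filter (none, or 5 FPKM), the scaling, the block, the groups in the fit and the libraries left out.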

Additional observations from a re-analysis of the deposited data

How the results depend on the processing

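Over 16 alternatives, 1 of them (library 3 of both cumulus groups left out) chosen after seeing the data, the 9 members called in mural cells kept their direction. Leaving out 1 library gave 99 to 3253 genes called between mural and young cumulus cells and 0 to 10 members, and 0 to 245 genes and 0 to 1 members with age. With library 3 of both cumulus groups left out, 7 genes were called with age. Rescaled to the same FPKM sum, the mural difference changed sign for Itgav (0.11) and Lama1 (0.02), neither called. With age, leaving out 1 library changed signs of uncalled members, with ranges of -0.21 to 0.02 (Itga1), -0.43 to 0.39 (Itga2), -0.14 to 0.17 (Itga9), -0.40 to 0.13 (Itgb5), -0.14 to 0.50 (Lama1), -0.20 to 0.37 (Lama4) and -0.49 to 0.27 (Lamb1), and leaving out library 3 of both cumulus groups gave -0.25 for Lama4 and 0.13 for Lamb1. The cause was not tested. Whether the labels' replicate numbers pair the libraries was not settled. Same-numbered deviations of cumulus cells at the 2 ages correlated at 0.006, 0.118 and 0.147, and differently numbered ones at -0.138 to 0.04. Between young cumulus and mural cells the same-numbered pairs gave 0.032 and 0.214, and the others -0.214 to 0.17. With the replicate number as a block, 10 members were called in mural cells, the 9 and Itgb5 (-1.07, adjusted p = 0.0102 by limma), of 3361 genes. Groups of 2 or 3 libraries and an unknown depth limit all values under about 1 FPKM.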
